A study of Acyrthosiphon pisum with 15 samples.

Results

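Clone F1 of the pea aphid, Acyrthosiphon pisum, was compared with clones I18 and BK11 across 5 adult morphs. The clone is represented by the 5 libraries whose genotype label and column name are F1, of 15 libraries in all, and each of the other clones by 5 more. Every clone supplied 1 library of each morph: wingless and winged asexual females, sexual females, and wingless and winged males. Each library was whole-body RNA of 30 pooled adults, read by Illumina sequencing. Rearing was at 18 °C with 16 h of light for asexual females, and at 15 °C with 13 h of light for the sexual generation of males and sexual females. Adults were taken at an age of 2 days, or of 2 to 6 days for sexual females. These conditions were the same in F1 as in the other clones. F1 is the name of the clone in the labels, which do not say that it marks a filial generation.

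Asexual aphid females bear daughters from unfertilised eggs, so the females of a clone share 1 genotype. That genotype can give rise to winged and wingless, sexual and asexual bodies. Differences between clones measured in the same morph therefore reflect genotype together with whatever else a culture carries. Pea aphid lineages are known to differ in host plant use, in heritable symbionts and in their response to parasitoids. Wings in males follow a locus on the X chromosome, while wings in asexual females are induced by conditions such as crowding. Each clone here is 1 lineage, and the labels do not say whether its libraries came from separate cultures, so p-values measure the spread among libraries. A genotype cannot be told apart from its culture. A low count can come from less RNA per cell, from fewer cells of a type, or from reads of a clone that do not align to the reference model, and these cannot be told apart.

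The values are normalised counts per gene model, which are read counts divided by a size factor of the library and are not scaled for length. The files give identifiers without gene names. Of 20657 identifiers, 61 matched the RefSeq table of assembly pea_aphid_22Mar2018_4r6ur_v2 and 1 had a descriptive symbol, Syt4, so the results are given by the size, breadth and morph pattern of the differences. Recovered reads ranged from 28721904 to 75066116 per library. As libraries, those of F1 did not stand apart from the others by an exact permutation of clone labels within morphs, in which the smallest p possible was 0.00412 and 4 measures were tested. Gene models with a normalised count under 10 numbered 4585 ± 1903 in F1, 4233 ± 1506 in I18 and 4295 ± 1328 in BK11 (SD, n = 5, exact two-sided permutation p = 0.115, adjusted 0.46). The adjusted p was 0.593 for reads, for the sum of normalised counts and for the share of the 10 most abundant models.

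The morph labels were checked with gene models that marked 1 kind of body in these data. A marker had a median of at least 1000 in its class and at least 100 times the median elsewhere. This choice, made in the same libraries, favours low levels outside the class. The 232 male, 43 sexual female and 87 asexual female markers stood at a median of at most 0.397% of their class level in every F1 library outside that class. Libraries of the other clones departed further. In the I18 wingless male library, asexual female markers stood at 43.1% and sexual female markers at 7.40%. In BK11, asexual female markers stood at 1.60% in the sexual female library, and sexual female markers at 1.18% in the winged male and 0.732% in the wingless male library. Male markers stood at 28.4% of their class level in that winged male library. These 4 libraries are called doubted below, and the results are also given without them. The winged male library of I18 was kept, though its asexual female markers, at 0.792%, stood above the 0.732% that marked the BK11 wingless male library. No limit common to all markers therefore set the doubted libraries apart.

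F1 had more called gene models than either other clone, and its differences ran in both directions. In F1, 305 gene models were higher (1.5% of the 20301 tested) and 418 lower (2.06%) than in I18 and BK11, together 3.56% (limma with morph as covariate, adjusted p threshold 0.05). The same fit with I18 set against the other clones called 236 gene models (1.16%), and with BK11 set against the others 357 (1.76%). These fits share libraries and were not tested against each other. In fits of 10 libraries each, F1 differed from BK11 in 858 gene models (4.23%) and from I18 in 610 (3%), while I18 and BK11 differed in 374 (1.84%). With 3 clone levels, which takes the distance between I18 and BK11 out of the spread, 491 models were higher in F1 (2.42%) and 654 lower (3.22%). That fit, on all 15 libraries, called 603 models (2.97%) between I18 and BK11, more than the 374 from 10 libraries. When the doubted libraries were left out, F1 had 163 higher and 221 lower calls, I18 121 calls and BK11 61. These counts rest on 5 libraries of F1, 4 of I18 and 2 of BK11 and are not comparable between clones. Without the wingless asexual, winged asexual or winged male library of F1, the higher calls numbered 195, 195 and 201.

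The called differences were large. The median log2 fold change was 2.58 for models higher in F1 and −2.94 for those lower, on the log2(normalised count + 1) scale. Of the higher ones 290 reached 2-fold, 123 reached 8-fold and 38 reached 32-fold. Of the lower ones the numbers were 407, 202 and 60. In the same 723 gene models, the median absolute log2 difference was 2.83 for F1 and 0.42 between I18 and BK11. Of them 31 (4.29%) were also called between I18 and BK11, against 2.97% of all models. The choice of models favours a large F1 difference beside a smaller one between the other clones, since the spread in the test includes the distance between I18 and BK11. Over all gene models tested, the median absolute log2 difference was 0.32 for F1 and 0.35 between I18 and BK11. The F1 value is a distance to a mean of clones, and the other is a distance between single clones. These medians are therefore not like for like.

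**Figure D1:**
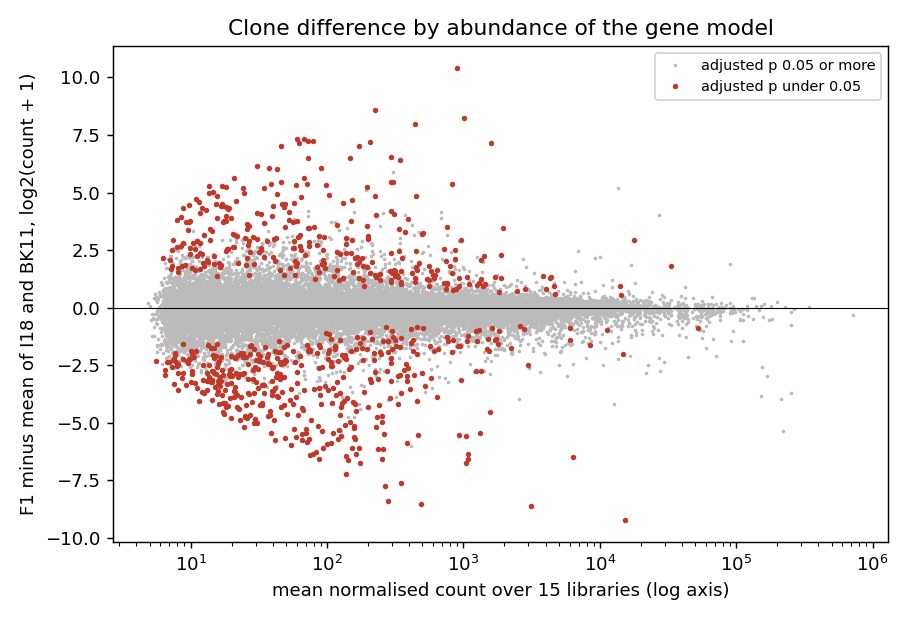
Log2 difference between F1 and the mean of I18 and BK11 (y axis) against the mean normalised count over 15 libraries (x axis, log scale), 1 point per gene model tested. The 723 called models, in red, include 305 above and 418 below 0, and most lie left of a mean of 1000.

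After the mean of each morph was removed, clone F1 formed a group of its own. The first principal component held 30.0% of the remaining variance. The F1 libraries scored −117.9 to −79.7 on it, the I18 libraries −10.4 to 38.4 and the BK11 libraries 54.2 to 90.9, so no clone overlapped another. The F1 sexual female library lay farthest out. On the second component, with 19.9%, the I18 libraries scored 39.5 to 126.8 and all others lay below them, with the doubted I18 wingless male library at the top. As a share of the total sum of squares, morph held 74.5%, the contrast of F1 with the others 7.20%, the contrast of I18 with BK11 4.87% and the residual 13.5%. Set against the rest in the same way, BK11 held 6.13% and I18 4.77%.

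**Figure D2:**
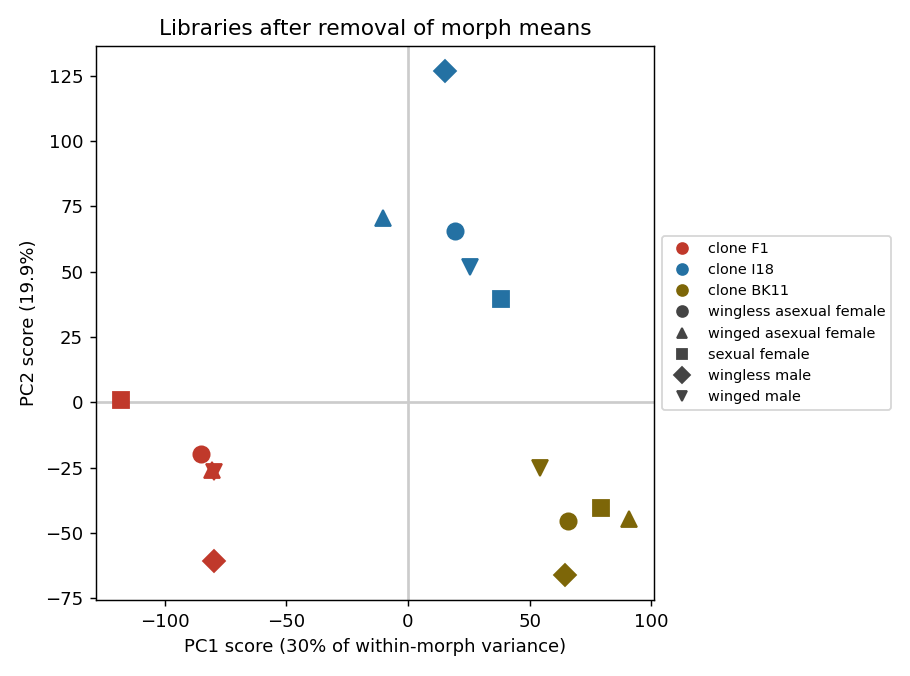
Scores of the 15 libraries on the first 2 principal components (x and y axes) of log2 values after removal of each morph's mean, with colour for clone and symbol for morph. The 5 F1 libraries lie at −79.7 or below on the first component, left of every other library.

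The differences lay mainly in gene models of low abundance and without a strong morph pattern. Of models with a mean under 100, 5.09% were called, and of those from 100 to 1000, 4.66%. The share was 0.874% between 1000 and 10000 and 1.15% at 10000 or more. The distance between I18 and BK11 followed the same order, with 4.49%, 3.74%, 0.518% and 1.15% called. Among the 15171 models in which no kind of body exceeded both others by 4-fold, 4.17% were called in F1. The share was 2.21% of the 2891 models highest in males, 1.22% of the 1392 highest in sexual females and 1.18% of the 847 highest in asexual females. Between I18 and BK11 the share was also highest without such a pattern, at 3.20%, against 2.59%, 2.16% and 1.42%. The median standard error of the F1 difference was larger in these classes, at 0.53, 0.44 and 0.50, than the 0.34 of models without such a pattern. Its part in the lower shares was not tested. Of male-high models 44 were lower in F1 (1.52%, against 2.06% of all models) and 20 higher (0.692%, against 1.5%).

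The form of the identifier also went with the share called. Identifiers of 6 digits that begin with 06, 07 or 08 were called in 368 of 6251 cases (5.89%), and those of 5 digits in 219 of 5413 (4.05%). Those that begin with 00 or 01 were called in 136 of 8637 (1.57%). Between I18 and BK11 the shares were 4.58%, 4.12% and 1.09%. The median standard error of the F1 difference was 0.475, 0.477 and 0.231 in the same order, and its part was not tested.

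Of the 5 gene models named for the largest differences or smallest p, each separated all F1 libraries from all others. ACYPI38972-RA had the largest increase. In F1 its normalised count was 5061 in wingless and 4668 in winged asexual females, 2080 in sexual females, 942.1 in wingless males and 750 in winged males. In I18 it was 0, 3.34, 0, 1.89 and 3.99 in the same order, from 9 reads in all, and in BK11 no read was found in any of the 5 libraries. The F1 libraries all lay far above every other library, with females above males. The log2 fold change was 10.39 ± 0.61 (SE, limma adjusted p = 4.21e-07).

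ACYPI060082-RA was the next largest increase. Its normalised count in F1 was 1859 in wingless asexual females, 464.2 in winged asexual females, 222 in sexual females, 432.1 in wingless males and 389.7 in winged males. In the other 10 libraries it ranged from 0 to 4.17 with a median of 0. Only 7 reads were found there, against 3252 in F1. The groups did not overlap, and the log2 fold change was 8.59 ± 0.46 (limma adjusted p = 1.81e-07).

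ACYPI082228-RA had the largest decrease. It stood at 96.7 in wingless and 2.15 in winged asexual females of F1, 22.5 in sexual females, 32.4 in wingless males and 3.85 in winged males. In I18 the values were 38400, 676.4, 2530, 7925 and 4070, and in BK11 122400, 9484, 13450, 21370 and 10740. In each clone the wingless asexual females held the highest value. The winged asexual females were lowest in I18 and BK11, while in F1 they and the winged males had 3 reads each and cannot be ranked. The log2 fold change was −9.22 ± 0.62 (limma adjusted p = 1.35e-06). I18 and BK11 also differed, with I18 lower by −2.14 ± 0.41 on the log2 scale (limma adjusted p = 0.0126).

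ACYPI081660-RA combined a large difference with the smallest p. In F1 it was at 14.0 in wingless and 10.7 in winged asexual females, 22.5 in sexual females, 5.19 in wingless males and 7.69 in winged males. In the other 10 libraries it ranged from 2935 to 6820 with a median of 4307. All morphs of I18 and BK11 carried it at a similar level, and all morphs of F1 lacked most of it. The log2 fold change was −8.60 ± 0.25 (limma adjusted p = 1.18e-09), and I18 and BK11 differed by 0.19 ± 0.30 (limma adjusted p = 0.82).

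ACYPI56840-RA had the second smallest p. It was at 0 in 4 of the F1 libraries and at 0.937 in the F1 sexual females, from 1 read in all. In the other 10 libraries it ranged from 207.5 to 724.3 with a median of 392.1. The mean over those libraries was 2220 times that of F1, and the counting error alone gives this ratio a 95% interval from 399 to 87800. The limma adjusted p was 7.76e-09.

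**Figure D3:**
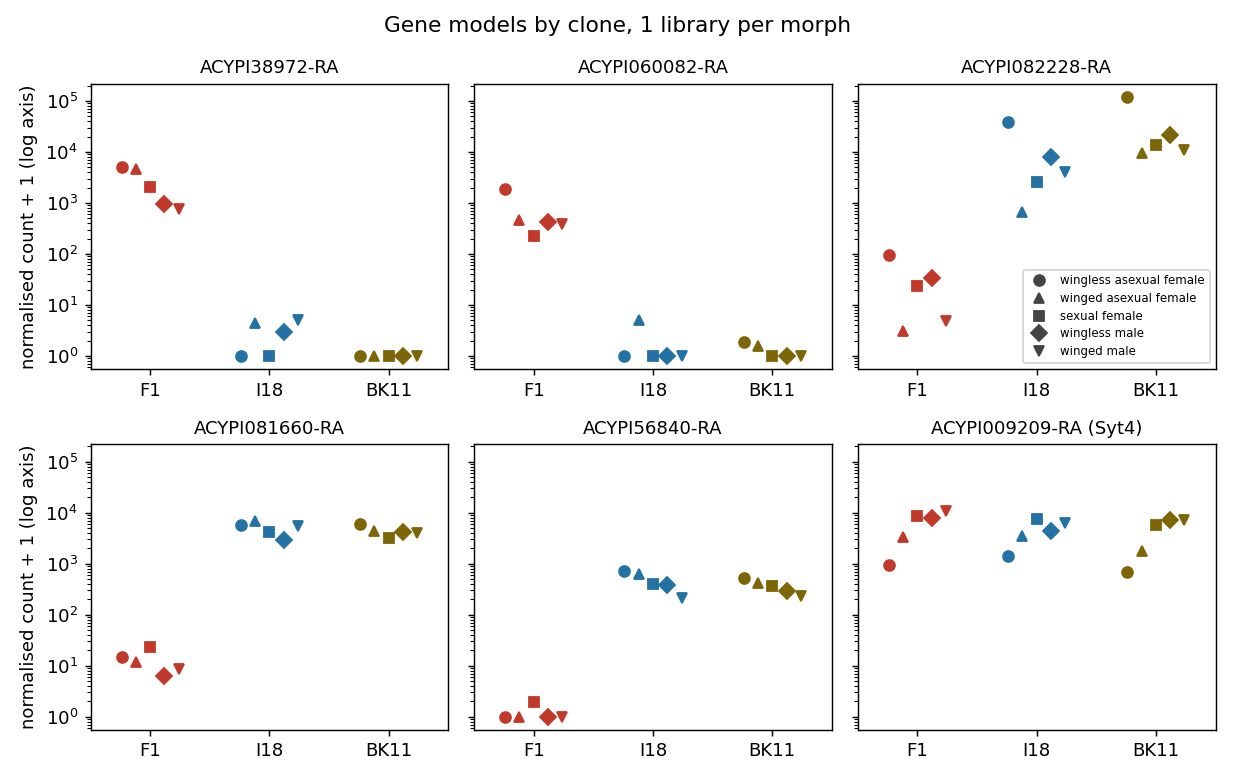
Normalised count plus 1 (y axis, log scale) of 6 gene models in each library, by clone (x axis and colour) and morph (symbol). The first 5 models separate F1 from I18 and BK11 in every morph, while Syt4 (ACYPI009209-RA) overlaps, from 964.3 to 10860 in F1 and from 688.4 to 7528 in the others.

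Syt4 (ACYPI009209-RA), named after synaptotagmin 4, a protein of vesicle membranes, shows a gene that followed morph more than clone. Its normalised count in F1 was 964.3 in wingless and 3379 in winged asexual females, 8556 in sexual females, 7942 in wingless males and 10860 in winged males. In I18 it was 1411, 3521, 7528, 4486 and 6256, and in BK11 688.4, 1819, 5875, 7082 and 7292. Wingless asexual females were lowest in every clone and the clones overlapped. The F1 difference of 0.39 ± 0.21 on the log2 scale missed the threshold (limma adjusted p = 0.399).

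Complete separation was also commonest in F1. All 5 F1 libraries lay below all 10 others in 177 gene models (0.872%) and above them in 110 (0.542%), whatever the morph. For I18 the numbers were 42 (0.207%) and 72 (0.355%), and for BK11 68 (0.335%) and 68 (0.335%). A gap of at least 10-fold on the scale of count plus 1 was found in 26 models below and 16 above for F1, 0 and 4 for I18, and 11 and 1 for BK11. Without the doubted libraries these numbers were 29 and 26 for F1, 0 and 8 for I18, and 19 and 14 for BK11, the last resting on 2 BK11 libraries. F1 was then set against 6 libraries in place of 10, which favours larger numbers, so the rise is no check on them. Within morphs, F1 was the lowest of the 3 clones in all 5 morphs for 552 models (2.72%) and the highest for 536 (2.64%). I18 was lowest in 313 (1.54%) and highest in 369 (1.82%), and BK11 lowest in 344 (1.69%) and highest in 497 (2.45%).

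By a strict rule, under 10 in every library of a clone and at least 100 in every other library or the reverse, F1 lacked 5 models (0.0242% of 20657) and alone carried 6 (0.029%). I18 had none of either kind and BK11 lacked 3 (0.0145%). Without the doubted libraries F1 lacked 8 and alone carried 7, I18 lacked 0 and alone carried 2, and BK11 lacked 5 and alone carried 2. With fewer libraries the rule is easier to meet. These counts rest on 5 libraries of F1, 4 of I18 and 2 of BK11 and are not comparable between clones. The 5 models that F1 lacked had medians of 259.6 to 589.7 in the other clones, and the 6 that it alone carried had medians of 142.7 to 2080 in F1. In each of these 11 models at least 1 read was found on the low side. ACYPI53063-RA, chosen after its values were seen, was the most even, at 145.1, 150.9, 110.5, 142.7 and 135.9 in wingless and winged asexual females, sexual females, and wingless and winged males of F1. It was at 0 in 9 of the other libraries and at 0.943 in the I18 wingless males, from 1 read.

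The F1 difference held across morphs in most of the called models. Of the 305 higher models 293 were higher in F1 than the mean of the other clones in all 5 morphs, and of the 418 lower ones 408 were lower. The models were chosen on the mean over morphs, which favours this. The median difference of the lower models was −2.94 in wingless and −2.94 in winged asexual females, −2.83 in sexual females, −3.05 in wingless males and −2.84 in winged males. For the higher models it was 2.81, 2.42, 2.12, 2.59 and 2.51 in the same order. Sexual females showed the smallest median in each direction, and the middle ranges of all morphs overlapped widely.

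**Figure D4:**
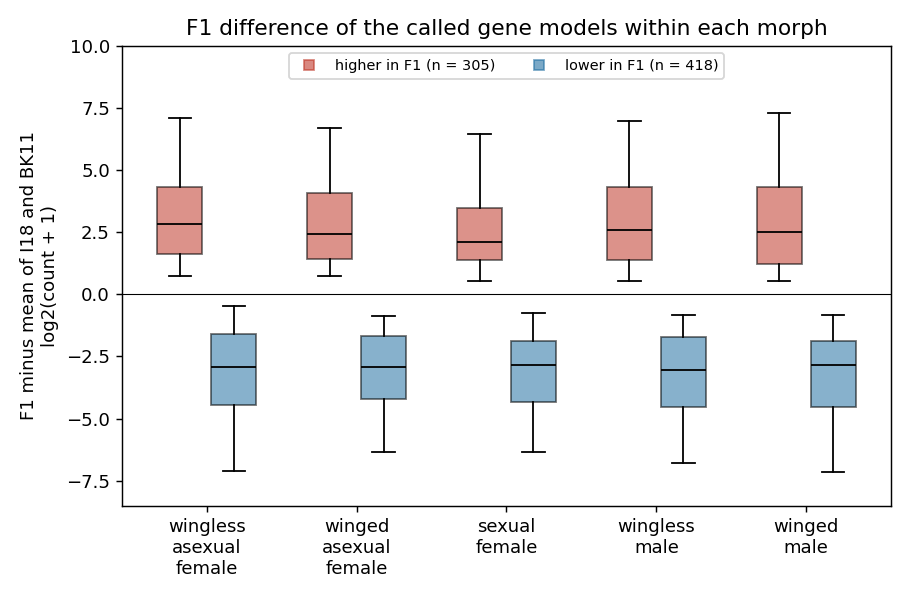
Difference between the F1 library and the mean of I18 and BK11 in log2(count + 1) (y axis) within each morph (x axis) for the 305 models called higher and the 418 called lower over all morphs. Boxes run from the lower to the upper quartile with the median as a line, whiskers run from the 5th to the 95th percentile, and medians lie between 2.12 and 2.81 and between −3.05 and −2.83.

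Whether the F1 difference depended on morph was tested directly, in a fit with an F1 effect for each morph and 5 residual degrees of freedom. Limma called 0 gene models for males against females, with 1569 (7.73%) at an unadjusted p under 0.05, and edgeR called 0 and DESeq2 197. It called 0 for winged against wingless morphs, with 168 (0.828%) at that unadjusted level, and edgeR called 0 and DESeq2 3. For sexual against asexual females limma called 1 (0.00493%), with 1825 (8.99%) at that unadjusted level, edgeR 0 and DESeq2 340. When nothing differs, that unadjusted level passes about 5% of models. With 1 F1 library per morph, limma's calls need large differences. The spread in this fit comes from I18 against BK11 within morphs, with the doubted libraries included. For wings the share of 0.828% lies below 5%, so the lack of calls does not show that wings had no part.

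The model called was ACYPI009984-RA. In sexual females it was at 177 in F1, 3704 in I18 and 4773 in BK11, while in wingless asexual females it was at 20270, 22970 and 21390. In winged asexual females it was at 10740, 19240 and 14870, in wingless males at 10910, 12120 and 10070, and in winged males at 10920, 10300 and 8480. F1 was thus far below both other clones in sexual females alone. The difference of the F1 effects was −4.17 ± 0.36 on the log2 scale (limma adjusted p = 0.0497). The call stood at the threshold, and 18 of 25 alternatives did not make it. The size stayed between −4.43 and −3.91 in all 25, while the adjusted p ran from 9.49e-16 with DESeq2 to 0.845 with limma without the doubted libraries. It was lost on leaving out either F1 asexual female library (0.24 without the wingless and 0.0937 without the winged, limma adjusted p), any 1 of the 5 I18 libraries (0.0721 to 0.244) or any 1 of the 5 BK11 libraries (0.0926 to 0.338).

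The F1 sexual female library had more gene models beyond both other clones than any other of the 15 libraries. Within this morph 47 models were higher (0.232%) and 178 lower (0.877%) in F1, 1.11% of those tested (limma, adjusted p threshold 0.05), with the lone F1 library assumed to vary like the others. The spread in this test comes from I18 against BK11 alone, including the 4 doubted libraries, so these counts are no replicated test of F1 within a morph. In wingless and winged asexual females 62 (0.305%) and 51 (0.251%) models were called, and in wingless and winged males 78 (0.384%) and 60 (0.296%). At least 2-fold beyond both other clones, the F1 sexual female library had 1808 models higher and 4368 lower, 30.4% of those tested. In the other 14 libraries that share ran from 8.80% to 24.1%, and the lower models from 738 to 2223. Against I18 alone 5708 models were at least 2-fold lower in F1 sexual females and 2934 higher, and against the doubted BK11 library 6155 and 2881. The F1 library had 52222811 reads, against 73961669 in I18 and 71068422 in BK11. No read was found for 2104 models in the F1 library, 918 in that of I18 and 710 in that of BK11. The part of depth was not tested. The age range of 2 to 6 days applies to the morph in each clone, and the ages within it are not given.

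**Figure D5:**
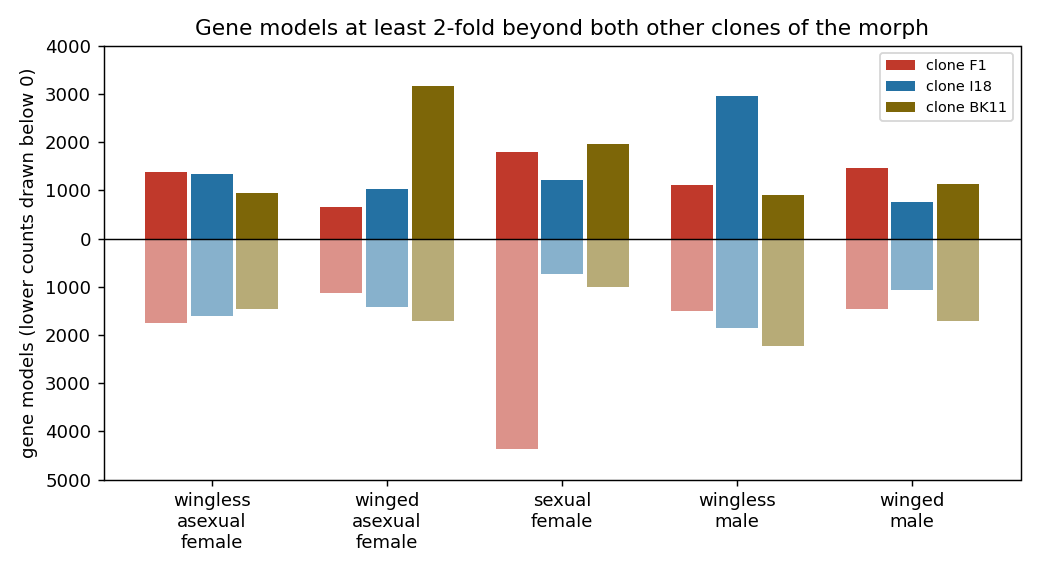
Number of gene models (y axis) at least 2-fold higher (solid, above 0) or lower (pale, below 0) in a library than in both other clones of the same morph (x axis), by clone. The F1 sexual female bar reaches 4368 lower models, against 738 to 2223 in the other 14 libraries.

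The 4368 models low in F1 sexual females differed little, at the median, in the other morphs of the clone. Their median F1 difference was −2.22 in sexual females, by choice, and −0.09 in wingless asexual females, −0.44 in winged asexual females, −0.07 in wingless males and −0.12 in winged males. The clone comparison over all morphs, which includes the sexual females, called 358 of them (8.20%, against 3.56% of all models). Of the 1808 higher models it called 236 (13.1%). Their median F1 difference was 1.85 in sexual females, by choice, and 0.26 to 0.76 in the other morphs. The median of the mean normalised count was 87.8 for the lower and 108.4 for the higher models, against 238.9 for all tested. Of the lower models 23.3% were highest in males, against 14.2% of all. Models at least 4-fold lower in sexual females than in both other kinds of body made up 19.4% of them, against 10.1% of all. For the higher models these shares were 5.70% and 2.93%. The sexual female mean behind these classes includes the F1 library on which the models were chosen. That choice by itself raises these shares for the lower models and reduces them for the higher models. The male markers stood at 0.00776% of their class level in F1 sexual females, 0.128% in I18 and 0.201% in BK11, and the sexual female markers at 80.6%, 108% and 100%. The part of these levels in the count of lower models was not tested.

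A few very abundant models were also lower in F1 sexual females. The 10 most abundant gene models of each library held 6.41% of the normalised counts in F1, 16.2% in I18 and 14.6% in BK11. Among the 10 models with the highest mean in sexual females, 4 with closely numbered identifiers were at least 2-fold lower in F1 than in either other clone. ACYPI49688-RA was at 450600 in F1, 1506000 in I18 and 1732000 in BK11. ACYPI49694-RA was at 380000, 1499000 and 1391000, ACYPI49696-RA at 302500, 1463000 and 1344000, and ACYPI49687-RA at 454100, 1087000 and 933200. They were chosen after their values were seen, and none was called over all morphs (limma adjusted p = 0.119, 0.172, 0.161 and 0.208). Whether they share reads was not tested. The most abundant model of the F1 sexual females was ACYPI088619-RA, at 675600, between 1099000 in I18 and 478800 in BK11.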

How the data were processed

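Whole-body RNA of 15 libraries was analysed, with groups taken from the genotype and morph labels. The signal deposited by the authors is the read count of a model over its library's size factor. The submitters' processing notes name DESeq2, with no version. For the aligner, counting tool, strand setting, genome build and annotation, the answer is "not given in the sources used here". All values, 100% in each library, were whole multiples of the smallest positive value within 0.001 of a read, which gave the whole reads. A count of 3 reads, the limit that a count of 0 allows, equals a normalised count of 1.63 to 5.95, and such limits cover counting error only.

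The filter required a value of 10 or more in 3 or more libraries, which 20301 models met and 356 did not. Limma 3.58.1 in R 4.3.3, with a mean-dependent prior variance, was run on log2(value + 1) with 5 morph means and an F1 term (9 residual degrees of freedom). A fit with 3 clone levels gave I18 against BK11. Benjamini-Hochberg adjustment ran over all models tested. EdgeR 4.0.16 (quasi-likelihood) and DESeq2 1.42.0 were run on the recovered reads as alternatives. The fits were also run on simulated counts with 1 fixed dispersion and no difference between I18 and BK11. The libraries here do hold such a difference, so those runs do not show how the fits perform on these data.

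Morph pairs the libraries of different clones, so it stood in the fit. Named models had the largest change in each direction among called ones with a mean of at least 100 and the same direction in 5 morphs, the 2 smallest p, the largest called dependence on morph in each direction, and Syt4. Planned product-name lists could not be applied. The comparison, lists and alternatives were chosen with earlier results of these data known.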

Additional observations from a re-analysis of the deposited data

Results flagged for a closer look

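Across 33 groups of 5 values, 6 held a library far from the others. Chance flags about 1 in 20 groups of true replicates. These groups hold different morphs, and most are of models chosen for their values, so that rate does not apply. The 5 libraries of a clone are 5 morphs, so a value that stands apart can be a feature of its morph. ACYPI060082-RA was at 1859 in wingless asexual females of F1 against 222 to 464.2 in the other morphs of F1, and at 4.17 in winged asexual females of I18 against 0 in the other morphs of I18. ACYPI56840-RA was at 0.937 in the sexual females of F1 against 0 in the other morphs of F1. ACYPI082228-RA was at 38400 in the wingless asexual females of I18 and at 122400 in those of BK11, above 7925 and 21370 in the next highest morphs. The sum of normalised counts was 62665099 in wingless asexual females of BK11, where the other morphs of BK11 had at most 46261483.

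The F1 effect on ACYPI009984-RA differed between sexual and asexual females by −4.17 on the log2 scale (limma adjusted p = 0.0497), from an F1 difference of −4.56 in sexual females and −0.66 to 0.22 in the other morphs.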

How the results depend on the processing

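The 5 models named for the F1 difference kept their direction and their call in all 35 or 36 alternatives (adjusted p at most 0.0194), and Syt4 (ACYPI009209-RA) was called in none of 36. Those 5 were chosen for the largest changes or smallest p in these libraries, which favours this. ACYPI38972-RA and ACYPI060082-RA were not tested in male morphs only, where too few libraries reached the filter. No result reversed. F1 calls were 187 higher and 272 lower with a filter of 50, which tests fewer models, 627 and 917 with DESeq2, 491 and 654 with 3 clone levels, 132 and 212 without the morph covariate, and 163 and 221 without the 4 doubted libraries. They were 153 and 219 in female morphs only and 22 and 86 in male morphs only, with fewer libraries. Without wingless asexual females 180 were higher, without winged asexual females 192, and without winged males 177, with 256 lower. Leaving out 1 library gave 195 to 342 higher and 294 to 474 lower.

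The 603 calls between I18 and BK11 became 371 with a filter of 50, 1299 with DESeq2, 226 without the doubted libraries, 312 without wingless asexual females, 291 without winged asexual females, 385 without wingless males, and 362 to 654 without 1 library, of which the lowest 4 came without an asexual female library of I18 (391 wingless, 362 winged) or of BK11 (391 and 386). I18 against the others gave 121 and BK11 61 without the doubted libraries. For males against females, 21 models were called with a pseudocount of 8, 197 with DESeq2, 2 without the I18 wingless male library (the filter of the full set kept, an alternative chosen after seeing the data) and 0 to 2 without 1 library. For sexual against asexual females, 0 were called with pseudocounts of 0.5 or 8, no filter, edgeR, or without the doubted or the I18 wingless male libraries, 340 with DESeq2, 16 in an additive model, and 0 to 1 without 1 library. For wings, 3 were called with DESeq2. Trimmed mean scaling moved the median F1 difference by −0.05. The causes were not tested. With 1 F1 library per morph, depth of replication limits the tests within morphs.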
